A study of Homo sapiens with 8 samples.

Results

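The m6A peaks of 4 heat shock genes were examined in HepG2 cells, a human liver cancer cell line (hepatocellular carcinoma). The genes were HSF1 (gene ID 3297), HSP90AA1 (gene ID 3320), HSP90AB1 (gene ID 3326) and HSPB1 (gene ID 3315). Their peaks were all listed peaks that shared at least 1 base with the gene's hg19 window, chosen by position and not by any measured value. This gave 1 peak among the 30765 peaks of the 4 lists, and 1 of the 12221 regions obtained by merging overlapping peaks across samples. The peak lay at HSPB1 in siMETTL3 replicate 2. HSF1, HSP90AA1 and HSP90AB1 had 0 peaks in each of the 4 lists.

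Cells received a control siRNA (siControl) or an siRNA against METTL3 (siMETTL3) and were collected after 48 h, with 2 replicates per group and 1 peak list per immunoprecipitated sample. No heat shock is described for these samples, and knockdown by siRNA is transient and seldom complete. Nothing says that the replicates came from separate cultures, so their spread may be technical. In m6A-seq, fragmented mRNA is pulled down with an antibody to N6-methyladenosine and positions with more pulled-down than input RNA are called as peaks. Each peak comes with its tags (the sequenced fragments counted within it), a fold enrichment over background, a percentage FDR (false discovery rate) and a score. The score is the log10 of the p-value times 10, with its sign turned, so that a higher score is a smaller p. The lists held between 6888 and 8577 peaks, with between 1945803 and 2426342 tags inside peaks, which is not the depth of the libraries. Per list, between 2346 (siMETTL3 replicate 1) and 3906 (siMETTL3 replicate 2) of the peaks had an FDR of at most 50%. In siControl these were 2896 and 3582. Replicate 2 also had more peaks than replicate 1 in siControl (8162 against 6888) and in siMETTL3 (8577 against 7138). Its median fold enrichment was higher too (4.6 against 4.5, and 4.85 against 4.38). Tags inside peaks and the median score were higher in replicate 2 of siControl but lower in replicate 2 of siMETTL3. Whether same-numbered samples were processed together was not tested. The lowest listed score was 50 or 50.01, and whether the lists analysed here hold every interval above it is not known. A count of 0 at a gene therefore means that no peak is listed there. It does not show that the mRNA lacks m6A or that the gene had no immunoprecipitated reads, which were not analysed here. From browser tracks, the paper that reported these data describes m6A enrichment on the HSPB1, HSP90AA1 and HSF1 transcripts. It also states that the methylation pattern of HSPB1 changed after METTL3 knockdown. HSP90AB1 is not among the genes it shows, and those tracks were not examined here. In the paper's mRNA measurements, HSPB1 was higher after METTL3 knockdown, while HSP90AA1 and HSF1 did not differ. METTL3 mRNA itself and the hepatocyte identity of the cells were not checked, since the lists hold no expression values and no gene names.

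HSF1 is the transcription factor that drives the heat shock response. Under proteotoxic stress it forms trimers and binds heat shock elements, which are inverted repeats of the motif GAA, in the promoters of chaperone genes. HSP90AA1 and HSP90AB1 encode the stress-inducible and the constitutive cytosolic HSP90, ATP-dependent chaperones that help client proteins mature and hold HSF1 inactive in unstressed cells. HSPB1 encodes HSP27, a small heat shock protein that binds unfolding proteins without using ATP. METTL3 is the catalytic subunit of the complex that writes most m6A on mRNA.

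Matches to the heat shock element pattern in the promoters of the chaperone genes are shown here because HSF1 acts on its targets through such elements. The sequences are promoter DNA from RefSeq on GRCh38.p14, and m6A was not measured on them. Promoters of 250 bases before to 50 bases after a gene start were searched for TTCNNGAA and GAANNTTC, each of which reads the same on both strands. A match to one can share its GAA or TTC with a match to the other. Matches are in capitals.
HSPB1, chr7:76302486-76302503, plus strand: cgagaGAAGGTTCcagat
HSP90AA1, chr14:102087104-102087133, minus strand: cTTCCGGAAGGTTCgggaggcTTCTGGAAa
HSP90AB1, chr6:44247773-44247795, plus strand: gcaggTTCTGGAAGATTCatggg
HSP90AB1, chr6:44247826-44247848, plus strand: gattgTTCTGGAAGCTTCtggat
HSPB1 had 1 match in its 1 promoter, 182 bases before the start. HSP90AA1 had 3 matches in 1 of its 2 promoters, the first of them 88 bases before that start. HSP90AB1 had 4 matches in 1 of its 3 promoters, in overlapping pairs that began 165 and 112 bases before the start. Of all 35116 promoters, 13.5% held at least 1 match and 1.71% held 2 or more. A match is a description of letters and not a measured binding site.

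The regulator had no listed peak. The HSF1 window (chr8:145515270-145538385, 23116 bases) held 0 peaks in every one of the 4 samples. Here and below, before, past and after a window refer to genome order, whatever the strand of the gene. The nearest peak past the window lay 136.3 and 136.4 kb away in siControl replicates 1 and 2, and 136.5 kb away in siMETTL3 replicate 1. In siMETTL3 replicate 2 it lay 11.2 kb away, with a score of 50.95, close to the lowest listed. On the other side the nearest peak was at least 381 kb away in every list.

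The HSP90 genes had no listed peak either. The HSP90AA1 window (chr14:102547075-102606086, 59012 bases) is the longest of the group and held 0 peaks in each of the 4 lists. The nearest peaks lay between 131.27 and 131.33 kb before it and between 68.5 and 68.7 kb after it in all 4 lists. The HSP90AB1 window (chr6:44214848-44221614, 6767 bases) also held 0 peaks in each list, but a peak lay close to it in all 4. This peak began 4.25 and 4.20 kb past the window in siControl replicates 1 and 2, and 4.24 and 4.30 kb past it in siMETTL3 replicates 1 and 2. It was not counted for HSP90AB1. Before the window the nearest peak lay 132.7 kb away in each siControl sample and 23.0 and 23.1 kb away in the siMETTL3 replicates.

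**Figure D1:**
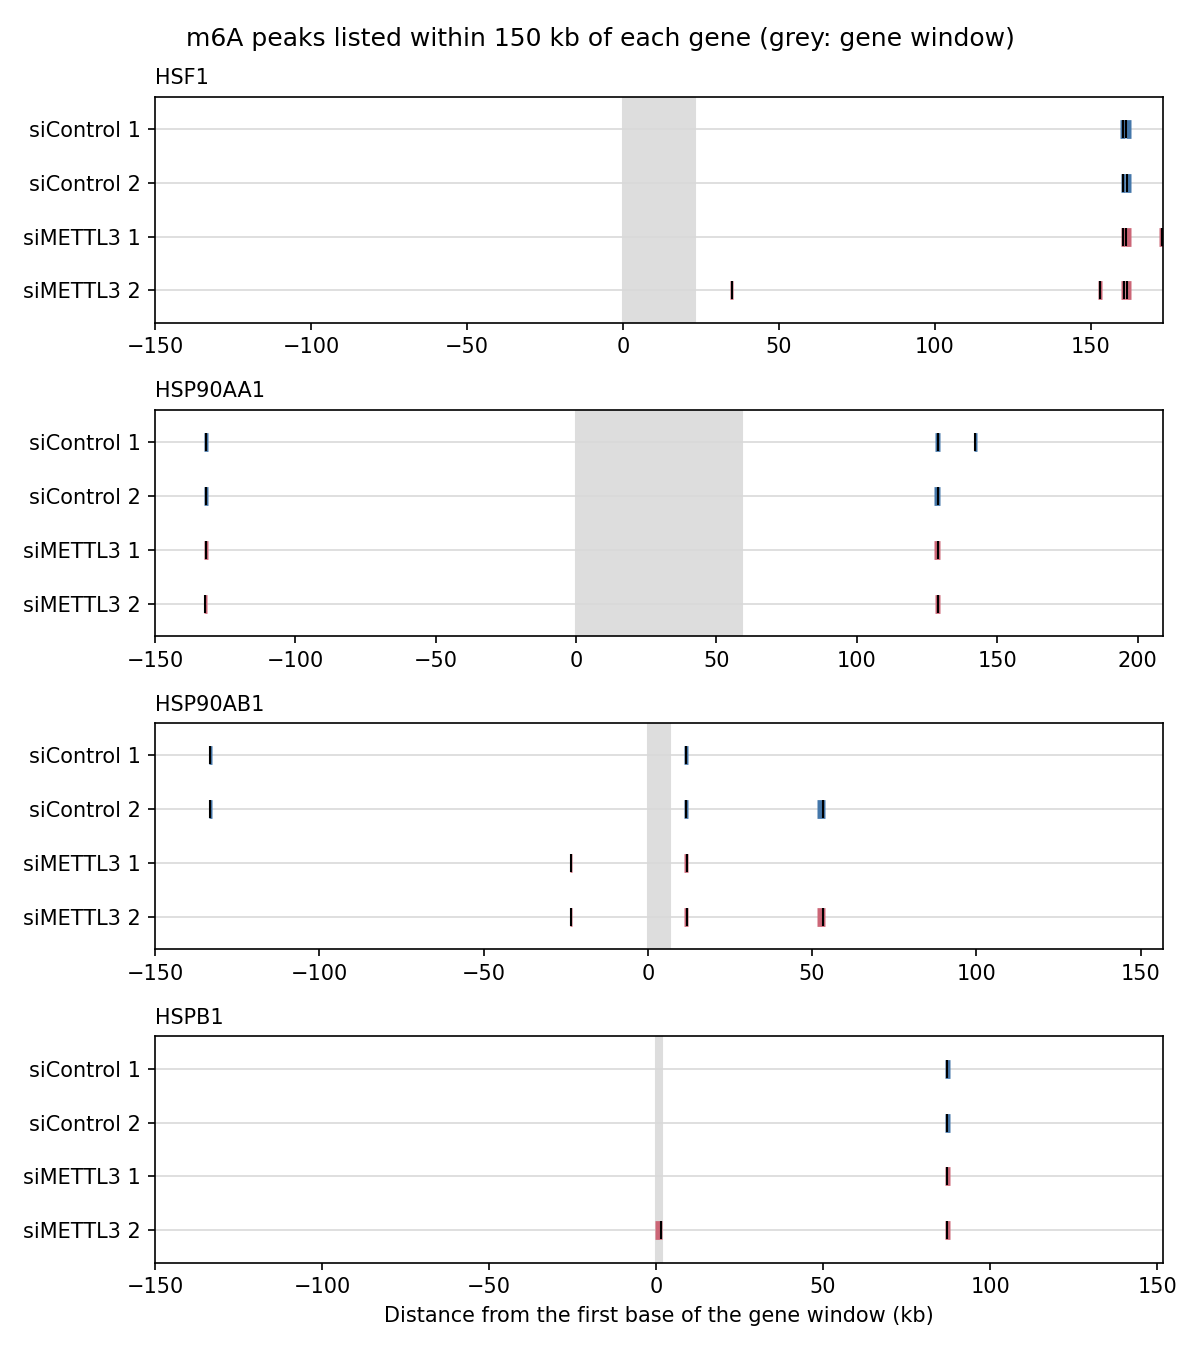
Positions of listed m6A peaks within 150 kb of the windows of HSF1, HSP90AA1, HSP90AB1 and HSPB1, 1 row per sample, as distance in kb from the first base of the window in genome order. Bars are peaks (blue siControl, red siMETTL3), black ticks their summits and grey bands the windows. Every window has listed peaks within 150 kb, and the only peak on a grey band is that of siMETTL3 replicate 2 at HSPB1.

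HSPB1 was the gene with a peak. Its window (chr7:75931875-75933614, 1740 bases) held 0 and 0 peaks in the siControl replicates, 0 in siMETTL3 replicate 1 and 1 in siMETTL3 replicate 2. The samples of siMETTL3 thus differed from each other, and siMETTL3 replicate 1 was like both siControl samples. The peak (chr7:75931454-75933704, hg19) was 2251 bases long and covered the whole window. It began 421 bases before the window and ended 90 bases after it, so 77.3% of its length lay in the window. Covering exons and introns alike, it does not single out an exon or an untranslated region of HSPB1. Its summit lay 1535 bases from the first base of the window and 204 bases from the last, 88.3% of the way along the gene in the direction of transcription.

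**Figure D2:**
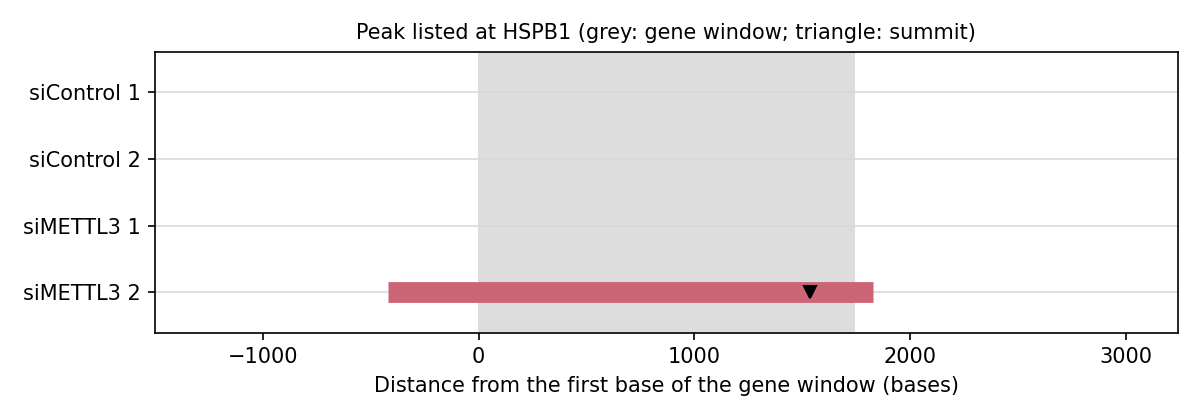
The HSPB1 window (grey, 1740 bases) with the peaks of the 4 samples, as distance in bases from the first base of the window. The bar is the peak of siMETTL3 replicate 2, 2251 bases long, and the triangle its summit, 204 bases from the end of the window. The rows of the other samples are empty.

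The HSPB1 peak held many tags but little enrichment. It had 895 tags, against a median of 139 over the 8577 peaks of siMETTL3 replicate 2, and 97.2% of these peaks had fewer. Per kb of genomic peak length, introns included, it had 398 tags, against a median of 139, and 96.1% of the peaks were less dense. Its fold enrichment was 2.98, a log2 value of 1.58, against a median of 4.85, and 4.47% of the peaks had a lower one. Its score of 57.97, a p-value of 1.6e-06, ranked 7647th in its list, whose median score was 108.5. The FDR listed for it was 86.9%, against a median of 54.4% over the list.

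Other peaks with as many tags set these values in context. In siMETTL3 replicate 2, 242 peaks had at least 895 tags. Their median fold enrichment was 3.28 and 87 of them were below the 2.98 of HSPB1, so its enrichment was within the range of peaks with so many tags. Their median score was 251.3, and 8 of them had a lower score than the HSPB1 peak. The other 3 lists held 367, 440 and 534 peaks with at least 895 tags (siControl replicate 1, siControl replicate 2 and siMETTL3 replicate 1). Tags are not scaled for depth, so these counts cannot be compared between samples. They do not bear on the lack of a listed peak at HSPB1 in the other 3 lists.

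**Figure D3:**
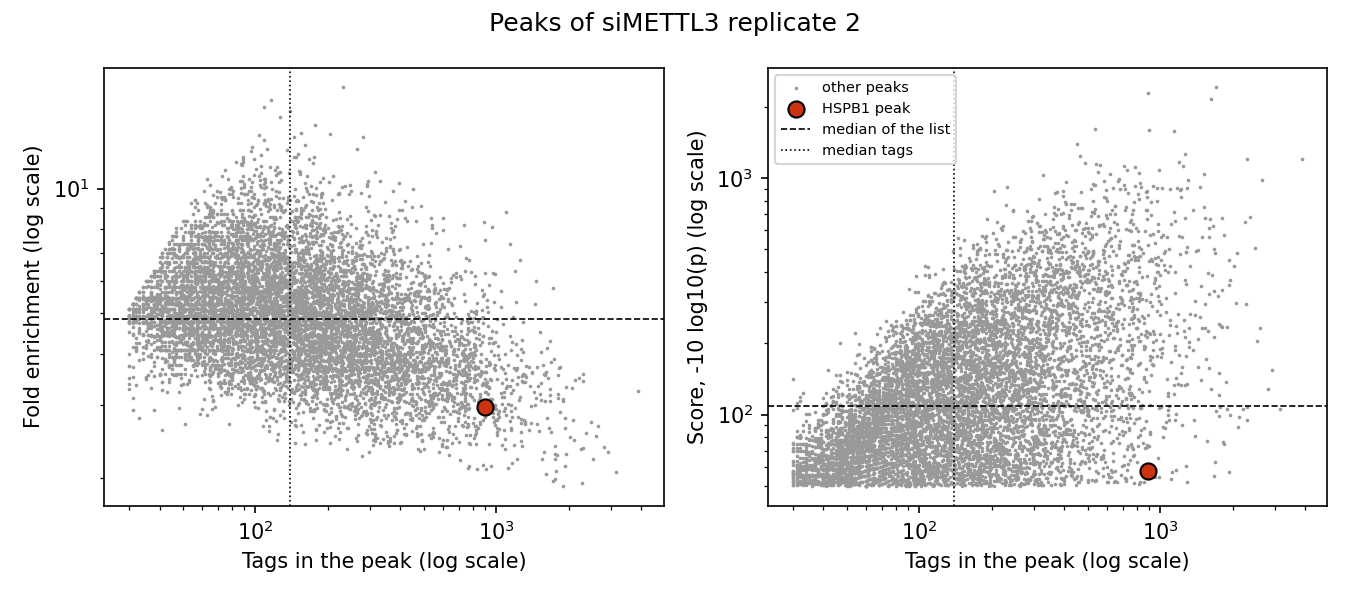
Fold enrichment (left) and score (right) against the number of tags for the 8577 peaks of siMETTL3 replicate 2, all axes logarithmic. Grey points are the other peaks, the red point is the HSPB1 peak, and the broken and dotted lines are the medians of the list. The red point lies to the right of the median of 139 tags and below the medians of 4.85 for enrichment and 108.5 for score.

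The HSPB1 region belonged to a common class. Of all 12221 regions, 11.4% (1399 regions) had a peak in siMETTL3 replicate 2 alone, and 31.1% had a peak in any single sample alone. The median peak of the 1399 regions had a score of 66.13, a fold enrichment of 4.65 and 66 tags. The HSPB1 peak had a lower enrichment than most of them, with 5.29% below it, and more tags than 98.7% of them. Of all regions, 5.25% were called in both siMETTL3 samples and in no siControl sample. Another 5.2% were called in both siControl samples and in no siMETTL3 sample, and 31.7% in all 4 samples. The HSPB1 region, called in 1 sample, cannot be in these classes, and the other 3 genes had no region to class.

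The comparison of siMETTL3 with siControl asks whether knockdown of the methyltransferase changed the m6A peaks of these genes. Over the 4 windows together, siControl samples had 0 and 0 peaks and siMETTL3 samples 0 and 1. The means were 0 ± 0 and 0.5 ± 0.707 (SD, n = 2 each), a difference of 0.5. With 1 sample above 0 the difference is always smaller than that SD, so comparing them is uninformative. With 1 sample above 0, an exact two-sided permutation test gives p = 1.0 whichever sample that is, so it cannot bear on a difference here. The bases covered by peaks were 0 ± 0 in siControl and 870 ± 1230 in siMETTL3 (SD, n = 2 each), where the same holds. Both differences came from siMETTL3 replicate 2, and without it both were 0. The HSPB1 peak was also absent among peaks with a score of at least 70, among those with an FDR of at most 50%, and among the 6888 most significant peaks of each sample.

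A difference in enrichment could not be tested at any of the 4 genes, because fold enrichment was compared over the 3875 regions with a peak in all samples and none of these lay in a window. In that limma fit 0% of regions passed a Benjamini-Hochberg adjusted p of 0.05, and 9.6% (372 regions) had an unadjusted p under 0.05. The shared regions nearest to the windows lie outside them, so the values that follow are not values of the 4 genes. Which transcripts these regions belong to was not determined. The shared region beside HSP90AB1 had a fold enrichment of 3.53 and 3.83 in siControl and 3.07 and 3.81 in siMETTL3. The groups overlapped there, and the log2 difference was -0.10 with a standard error of 0.18 (limma, adjusted p = 0.869). The shared region nearest to HSPB1, 84.7 kb past its window, had a fold enrichment of 3.97 and 4.07 in siControl and 3.33 and 3.06 in siMETTL3. The siMETTL3 samples were lower there, with a log2 difference of -0.33 and a standard error of 0.16, and the difference did not pass the test (limma, adjusted p = 0.547). The shared region nearest to HSF1, 136.3 kb past its window, went the other way, with a fold enrichment of 3.24 and 3.37 in siControl and 3.71 and 3.65 in siMETTL3. The groups did not overlap there, and the log2 difference of 0.16 with a standard error of 0.16 did not pass the test (limma, adjusted p = 0.775). The shared region nearest to HSP90AA1, 68.5 kb past its window, had a fold enrichment of 5.27 and 6.55 in siControl and 4.91 and 4.53 in siMETTL3. The siMETTL3 samples were lower there too, without overlap of the groups. The log2 difference of -0.32 with a standard error of 0.18 did not pass the test (limma, adjusted p = 0.583).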

How the data were processed

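m6A-seq peaks of 4 immunoprecipitated HepG2 samples were used. No values of the input libraries were used beyond what the authors' peak calling took from them. The labels' processing notes name CASAVA 1.8.2, MACS 1.4.2 and hg19, and the aligner is not given in the sources used here. No peak lay past a chromosome end of hg19, whereas 11 and 13 of 24 chromosomes had peaks past the ends of hg18 and hg38. The authors deposited, for each peak of each sample, the count of tags with no normalization for depth, the fold enrichment as a linear ratio, the score (10 times the negative log10 of the p-value) and the FDR in percent. The depth of the libraries is unknown, so no counting interval is given.

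Peaks sharing at least 1 base were merged into regions, and a sample's value was its highest fold enrichment there. Log2 fold enrichment, without a pseudocount, was fitted with limma (lmFit and eBayes). The fit was first run on simulated data with differences far larger than those given above. That run does not show whether differences of the size seen here would be found. All 4 genes were to be named whatever their values. The genes and tests were chosen with earlier results of these data known. Further heat shock genes and hepatocyte markers had been listed, but were not analysed here, since no annotation of hg19 was used. RefSeq promoters on GRCh38.p14 covered 3 of the 4 genes. No coordinates were converted between builds. The alternatives were stricter thresholds, other rules for giving a peak to a gene, other scalings, the replicate number as a block and leaving out each replicate. The versions were R 4.3.3 with limma 3.58.1, and Python 3.11.15 with pandas 2.3.3, numpy 2.4.6 and matplotlib 3.10.9.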

Additional observations from a re-analysis of the deposited data

How the results depend on the processing

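The difference in the number of peaks at the 4 genes (siMETTL3 minus siControl) was 0.5, and the difference in covered bases 870. Both were 0 with a score of at least 70, with an FDR of at most 50%, and with the 6888 peaks of highest score in each sample. With 1 replicate left out in turn they ranged from 0 to 1 peaks and from 0 to 1740 bases, with the lowest values without siMETTL3 replicate 2 and the highest without siMETTL3 replicate 1. Counting a peak by its summit, or only where at least 50% of it lay in the window, left them at 0.5 and 870. Widening the windows by 1 or 5 kb, chosen after seeing the data, left 0.5 peaks and gave 1125.5 and 1079.5 bases. At 5 kb the peak past HSP90AB1 was included in all 4 samples. With the replicate block the differences were 0.5 and 870, as they must be with 2 pairs of samples, so this says nothing about their stability. Replicate numbers were not taken as pairs. Deviations of same-numbered samples from group means correlated at 0.011 (3875 regions), which misses whole-list shifts. An FDR of at most 50% left 2346 to 3906 peaks per list. Regions called in siMETTL3 alone fell from 641 to 239 and in siControl alone from 635 to 324 (cause not tested). The limma fit called 0 regions under every alternative that kept all 4 samples, the replicate block included. Between 146 and 497 regions had an unadjusted p under 0.05 in these fits. The smallest adjusted p of limma was 0.065 with the replicate block, against 0.373 in the main fit. Fits without a replicate leave 1 sample in a group, which is assumed to vary like the other group, so their calls do not bear on stability. Alternatives for the enrichment at the 4 genes were not run, since none had a region called in all samples. The score of 50 at which the lists begin and the unknown depth limit what can be said of genes without a peak.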
